A study of Prunus sibirica with 6 samples.

Results

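The 6 genes described here are the apricot genes that the deposited annotation names, by protein similarity, as dehydration-responsive element-binding protein 2A, 2B, 2C or 3. The rule took genes by these descriptions from a table of 31889 genes and used no measured value, although earlier results of these data were known when the set was chosen. The genes were read in flowers of a pair of Prunus sibirica clones under frost. DREB proteins are plant transcription factors of the AP2/ERF superfamily that bind the dehydration-responsive element, a short promoter motif of drought and cold genes. In Arabidopsis the DREB1 (CBF) branch is best known from cold, whereas DREB2 proteins are best known from drought, salt and heat, and DREB2A needs to escape protein breakdown before it activates its targets. A transcript level therefore covers only a portion of what is known to control DREB2 activity.

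Clone 338 of Prunus sibirica, the Siberian apricot, has strong frost resistance and clone 28 has weak frost resistance, and each gave 3 RNA libraries from whole floral organs. All flowers were at bloom and had been damaged by natural frost at -4 °C, so every library is of frosted tissue, and no unfrosted flower was analysed here. Each level of resistance is 1 clone, so resistance cannot be told apart from anything else in which clones 338 and 28 differ. The labels do not tie the libraries to separate trees, and the p-values cover only the spread among the libraries, which may be technical.

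The deposited unit was FPKM, fragments per kilobase of gene length, scaled by the authors. Reads assigned to genes numbered 16367632 to 18866306 per library. Library 3 of the weak clone stood apart from its group. Pearson's r of its log2 values, taken across the tested genes (which are not replicates), was 0.895 to 0.925 with the strong libraries and 0.849 and 0.861 with weak libraries 1 and 2. Markers of other floral cell types were read as well. The pollen list held 25 genes, named for pollen or anther or as pectinesterase/pectinesterase inhibitor 28. Of these, 24 had reads (PARG30032, 1 of 2 genes named pollen receptor-like kinase 4, was at 0). Their summed FPKM was 6668 to 17328 in the strong libraries, and 15534 to 53102 in the weak, which overlap. The most abundant gene of the list, PARG29387, carries the pectinesterase name and was at 14770 FPKM in weak library 1. Of the pollen list 22 entered the test between the clones described below, and 0 passed it, against 15.3% of all tested genes. Of 43 photosynthesis genes, 40 had reads, and their summed FPKM was 4750 to 5635 in the strong libraries, and 1963 to 3186 in the weak. The same test took in 37 of the photosynthesis list. It called 14 with the strong clone above the weak and 1 with it below, or 40.5%, beside the same 15.3%. The genes with 0 reads in that list were PARG16194 and PARG24488, each a second gene of its name (chlorophyll a-b binding protein 16 and psbY), and PARG26752 (photosystem I subunit N). The 4 pistil S-RNase genes summed to at most 0.164 FPKM in a strong library and to 4.05 to 6.75 in the weak libraries, with ribonuclease S-4 at 0. Only 1 of the 4 was tested, and it was lower in the strong clone. These genes were not taken as a measure of pistil tissue. The part of these tissue markers in the results below was not tested. In whole flowers of different clones, fewer cells of a type, less RNA per cell and differences of the clones in the genes themselves cannot be told apart.

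All 6 genes had reads assigned to them in all 6 libraries, although PARG15623 had only 3 in each of weak libraries 1 and 2. DREB2C (PARG19138) lies on linkage group 5 (23011024 to 23013398, minus strand), DREB2A (PARG13530) on linkage group 4 (4921957 to 4923787, plus strand) and DREB2B (PARG29274) on the unplaced contig tig00008183 (753916 to 760551, plus strand). The genes described as DREB3 lie on linkage group 8 (PARG27864, 19422793 to 19425524), linkage group 2 (PARG07913, 33073778 to 33075359) and linkage group 4 (PARG15623, 21261246 to 21262586), all on the minus strand. Coordinates are as deposited, and the build is not given in the sources used here. None of the 6 genes overlaps or adjoins another of them. The AP2 DNA-binding domain was annotated in 5 of the 6. The exception was PARG27864, which carries the DREB3 description but no domain annotation and no transcription factor family, so its name rests on similarity alone. The DREB2B gene is named for a rice protein (OsDREB2B), and the others for Arabidopsis proteins. The DREB3 gene PARG07913 lies entirely, over its 1582 bases, inside an exosome exonuclease gene of the opposite strand (RRP46 homolog, PARG07912, 33073778 to 33097524). The library preparation is not stated to keep strand, and exon positions were not used here. It is therefore not known whether reads of this pair can be told apart.

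**Figure D1:**
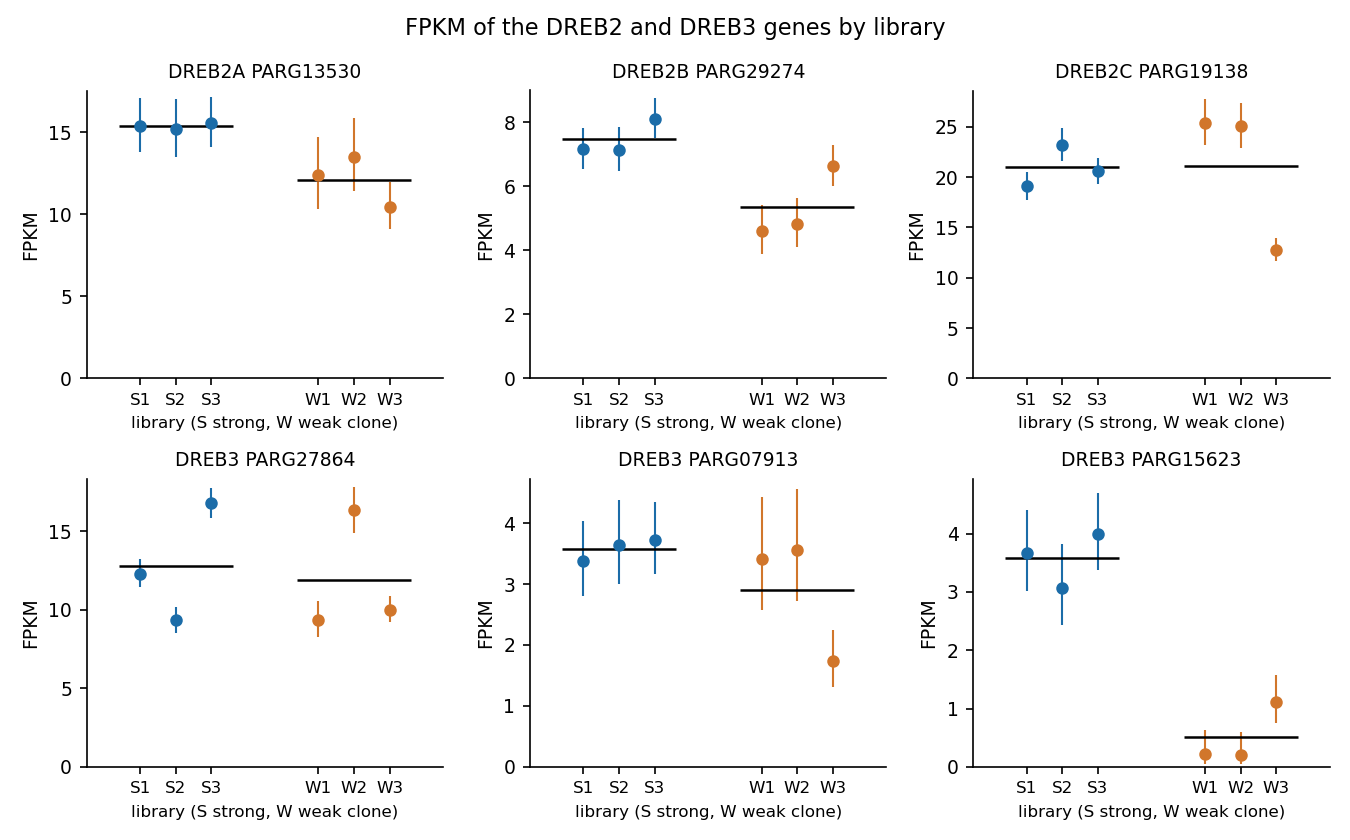
FPKM of each gene in each library (points, numbered by library, S for the strong and W for the weak clone), with 95% Poisson intervals of the read counts as bars, which cover counting error only, and the mean of each clone as a black line. Every axis starts at 0. The DREB3 gene PARG15623 stood at 3.07 to 4.0 FPKM in the strong libraries and at 0.206 to 1.11 in the weak libraries, while weak library 3 held the lowest DREB2C and PARG07913 values and the highest DREB2B value of its clone.

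The comparison of the clones asks which genes differ between frosted flowers of a resistant and a sensitive tree. All 6 genes passed the filter on low values (1 FPKM in at least 3 of 6 libraries) and were tested within the whole table of 16462 genes, by limma on log2(FPKM + 1) with Benjamini-Hochberg adjustment at 0.05. A single gene of the 6, the DREB3 gene PARG15623, passed the test and was higher in the strong clone. The background was 15.3% of all tested genes called, with 7.53% higher and 7.78% lower, so 1 call among 6 is near that share. All 6 differences were positive, with a median of 0.30 on the log2 scale, against 0.05 over all tested genes, of which 52% were positive. With libraries scaled to equal FPKM sums instead, the median of all tested genes shifted by 0.71 and the calls over all genes became 1568 higher and 747 lower, from 1239 and 1281. Under that scaling DREB2A (1.11, adjusted p = 0.0480) and DREB2C (0.85, adjusted p = 0.0376) passed besides PARG15623 (2.07, adjusted p = 0.0198), against a background of 14.1% called and 9.52% called higher. Taken relative to the median of all genes under that scaling, DREB2A was at 0.35, DREB2C at 0.10 and PARG15623 at 1.32. Strong and weak libraries did not overlap in 3 of the 6 genes (DREB2A, DREB2B and PARG15623), all higher in the strong clone. Over all tested genes 45.4% did not overlap, 23.3% with the strong clone higher.

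DREB2A is the best studied member of its branch in Arabidopsis, where it activates drought and heat genes. Its apricot namesake was at 15.4, 15.2 and 15.6 FPKM in strong libraries 1, 2 and 3, and at 12.4, 13.5 and 10.4 FPKM in weak libraries 1, 2 and 3. Every strong library was above every weak library, and the 3 strong values lay closer together than their counting error, since 347 reads in strong library 1 alone give a 95% Poisson interval of 13.8 to 17.1 FPKM. The clone means were 15.4 ± 0.194 and 12.1 ± 1.54 FPKM (SD, n = 3), a 1.27-fold difference. It did not pass the test (log2 difference 0.33 ± 0.18 SE, 95% interval -0.10 to 0.76, limma adjusted p = 0.184). The interval holds no difference as well as an increase of 0.76.

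DREB2B of rice responds to heat and drought and is known for alternative splicing of its transcript. The apricot gene of this name has a span of 6636 bases for a counted length of 3049, the longest of the 6. It was at 7.16, 7.14 and 8.12 FPKM in strong libraries 1, 2 and 3 and at 4.62, 4.83 and 6.64 FPKM in the weak libraries. The clones did not overlap, and weak library 3 was the weak library nearest to the strong ones. The means were 7.47 ± 0.56 and 5.36 ± 1.11 FPKM (SD, n = 3), 1.39-fold apart, and the test was not passed (log2 difference 0.42 ± 0.21 SE, 95% interval -0.08 to 0.92, limma adjusted p = 0.150). Without weak library 3 the difference was 0.56 ± 0.14 and passed (adjusted p = 0.0107), in a fit where 73.4% of all tested genes passed and 38% passed as higher.

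DREB2C is known in Arabidopsis as a heat-responsive member. The apricot gene was the most abundant of the 6 in every library, at 19.1, 23.2 and 20.6 FPKM in strong libraries 1, 2 and 3 and at 25.4, 25.1 and 12.8 FPKM in weak libraries 1, 2 and 3. Weak libraries 1 and 2 were above all strong libraries and weak library 3 was below all of them, so the clone means were close, at 21.0 ± 2.10 and 21.1 ± 7.18 FPKM (SD, n = 3). The log2 difference was 0.05 ± 0.30 (SE, 95% interval -0.66 to 0.76, limma adjusted p = 0.899). Its sign rested on weak library 3. Without that library the difference was -0.26 ± 0.14 (adjusted p = 0.132), and without strong library 2 it was -0.02. The 95% interval does not show that the clones have the same level.

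DREB3 is the Arabidopsis protein also called TINY 2, of the TINY-type group of DREB proteins. The gene PARG27864, without an annotated AP2 domain, varied more within the clones than between them. It was at 12.3, 9.32 and 16.8 FPKM in strong libraries 1, 2 and 3 and at 9.36, 16.3 and 9.998 FPKM in the weak libraries. These values rest on 265 to 1231 reads, and the spread within each clone was larger than counting error. The log2 difference was 0.10 ± 0.30 (SE, 95% interval -0.62 to 0.83, limma adjusted p = 0.796). It turned negative, to -0.10 without strong library 3 and to -0.04 without weak library 1.

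The DREB3 gene PARG07913 was at 3.39, 3.64 and 3.72 FPKM in strong libraries 1, 2 and 3 and at 3.42, 3.55 and 1.73 FPKM in the weak libraries. Weak library 3 alone was low, and the others stood together. The log2 difference was 0.27 ± 0.26 (SE, 95% interval -0.35 to 0.88, limma adjusted p = 0.413). Without weak library 3 it was 0.03 (adjusted p = 0.855). The gene that encloses it, PARG07912, was highest in weak library 3, at 11.8 FPKM, against 3.47 and 3.76 FPKM in weak libraries 1 and 2 and 8.77, 5.95 and 9.25 FPKM in the strong libraries. Since the pair share their position, neither set of values can be assigned to its gene with certainty.

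The DREB3 gene PARG15623 was at 3.67, 3.07 and 4.0 FPKM in strong libraries 1, 2 and 3 and at 0.216, 0.206 and 1.11 FPKM in weak libraries 1, 2 and 3. The clones did not overlap, and weak library 3 lay between the other weak libraries and the strong ones. The values rest on 112, 80 and 144 reads in the strong libraries and on 3, 3 and 31 reads in the weak libraries. The clone means of 3.58 ± 0.47 and 0.511 ± 0.52 FPKM (SD, n = 3) differed 6.997-fold, and the log2 difference on the log2(FPKM + 1) scale, where changes of low genes come out too small, was 1.65 ± 0.28 (SE, 95% interval 0.98 to 2.31, limma adjusted p = 0.0170). By reads, scaled by library, the strong libraries together were at 5.52 times the weak libraries together (exact 95% interval 3.93 to 7.98, counting error only). They were at 17.2 times weak libraries 1 and 2 (7.82 to 47.2) and at 3.26 times weak library 3 (2.25 to 4.88).

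The call of PARG15623 was lost without any 1 library other than weak library 3. Its adjusted p was 0.0606 to 0.092 when any strong library, weak library 1 or weak library 2 was left out, with differences of 1.51 to 1.73, and 0.000221 without weak library 3, with a difference of 1.91. The gene reached 1 FPKM in every strong library but, of the weak ones, in library 3 alone, so it passed the filter through the clone where it was high. Photosynthesis markers moved with it, at a mean log2(FPKM + 1) of 5.95, 5.89 and 6.08 in the strong libraries and of 4.09, 4.77 and 5.45 in weak libraries 1, 2 and 3, where weak library 3 was again nearest to the strong ones. Pollen markers were lower in the strong clone on average, at 6.73, 7.44 and 6.21 for strong and 8.54, 8.40 and 7.07 for weak libraries. The part of either in this difference was not tested.

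**Figure D2:**
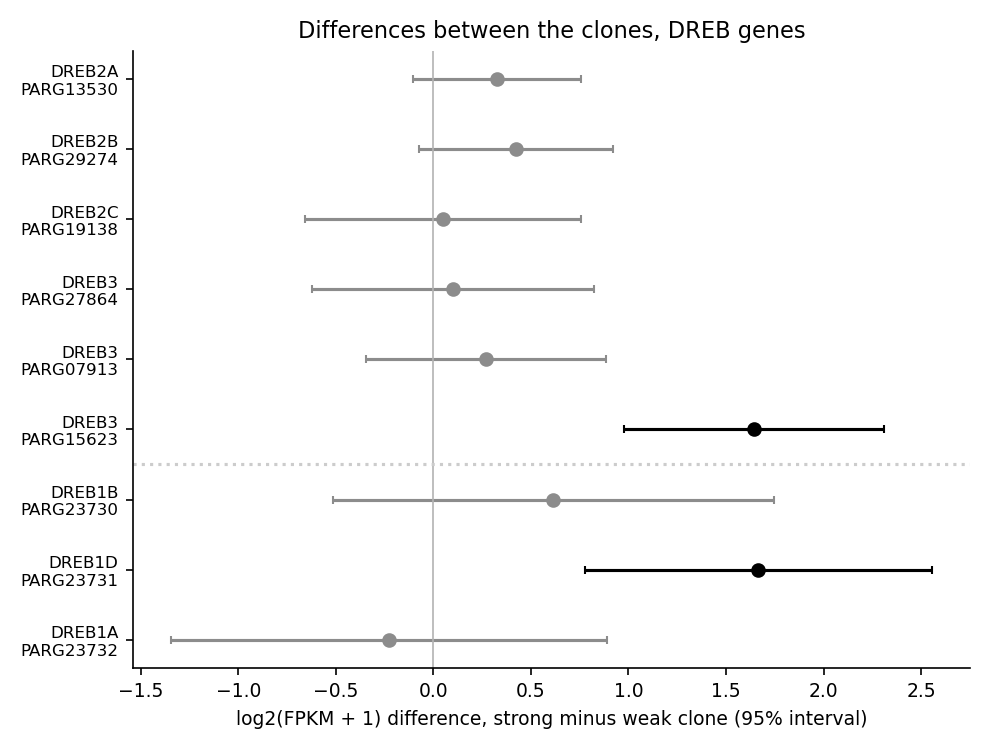
Difference between the clones on the log2(FPKM + 1) scale, strong minus weak, with 95% intervals of the limma fit, for the 6 DREB2 and DREB3 genes and, under the dotted line, the 3 tested DREB1 genes. Black marks an adjusted p below 0.05. PARG15623 (1.65) and DREB1D (1.67) have intervals above 0, although neither call held with every library left out in turn, and the intervals of the other genes include 0.

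FPKM is per length, so the levels of the genes can be compared within a library. The order of the 6 was nearly the same in both clones. DREB2C was the highest in every library and DREB2B the fourth in every library. DREB2A and PARG27864 exchanged the ranks below DREB2C between libraries, with DREB2A second in strong libraries 1 and 2 and in weak libraries 1 and 3, and did not differ beyond their spread. The DREB3 genes PARG07913 and PARG15623 exchanged the last ranks in the strong libraries, whereas PARG15623 was the lowest in all 3 weak libraries. Mean FPKM over all libraries placed DREB2C above 70.8% of the tested genes, DREB2A above 59.5%, PARG27864 above 56.3%, DREB2B above 36.7%, PARG07913 above 20.3% and PARG15623 above 11.8%. Among 65 tested genes with an AP2 domain, DREB2C ranked 21 by mean FPKM and PARG15623 ranked 56.

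Shares within a library do not depend on how libraries were scaled. Of the summed FPKM of the 6 genes, DREB2A held 22.6% to 25.2% in the strong and 21.3% to 24.5% in the weak libraries, and these ranges overlap. DREB2C held 31.3%, 37.7% and 30.0% in strong libraries 1, 2 and 3 and 45.8%, 39.5% and 29.9% in the weak libraries, which also overlap. PARG15623 held 6.01%, 4.99% and 5.81% in the strong libraries and 0.39%, 0.325% and 2.60% in the weak libraries, without overlap. Against each of the other 5 genes its ratio separated the clones. PARG07913, the nearest in level, was at 0.923 to 1.19 times PARG15623 in the strong and at 1.56 to 17.2 times in the weak libraries. DREB2A was at 3.89 to 4.94 times PARG15623 in the strong and at 9.39 to 65.5 times in the weak libraries. Each of these 5 comparisons gave an exact permutation p = 0.1, two-sided, with an adjusted p of 0.1 over the 5. This is the smallest p that 3 against 3 can give. PARG15623 is part of all 5 ratios and was already known to separate the clones, so these p-values add no support. The sum of the 6 genes was 61.0, 61.6 and 68.8 FPKM in the strong and 55.4, 63.5 and 42.7 FPKM in the weak libraries, which overlap.

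**Figure D3:**
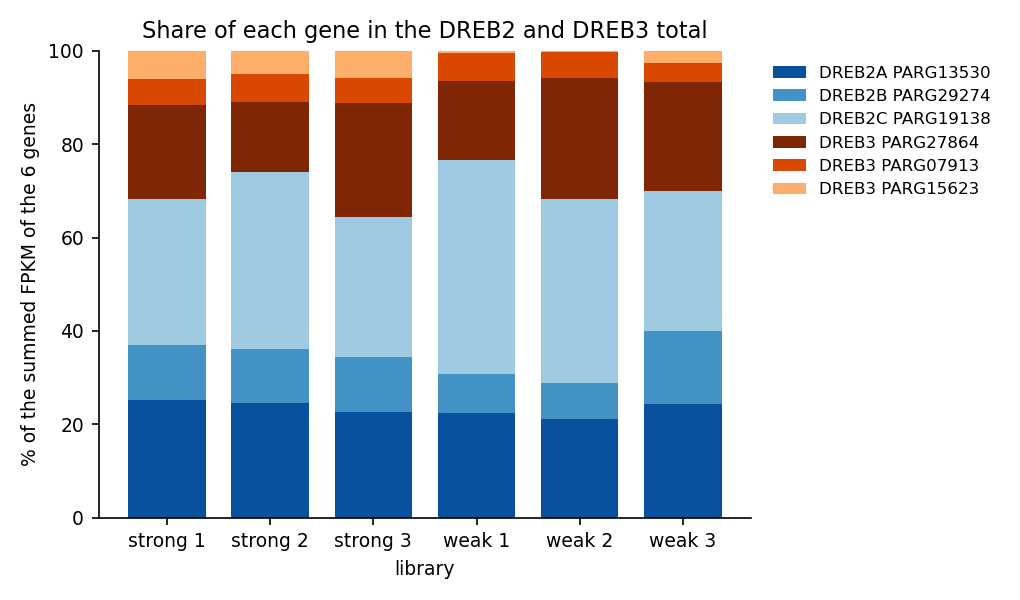
Share of each gene in the summed FPKM of the 6 genes, one bar per library, in percent. DREB2C is the largest band in every bar, and the PARG15623 band at the top shrinks from 4.99% to 6.01% in the strong libraries to 0.325% to 2.60% in the weak libraries.

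Genes with the most similar pattern were sought among 12040 tested genes with a protein name, by Pearson correlation of log2(FPKM + 1) over the 6 libraries. The libraries fall into clusters, so many genes reach a high value by the same separation, and the correlations are a description of these libraries. DREB2A was most like calcineurin B-like protein 4 (PARG19629, r = 0.996), a calcium sensor, at 18.98, 17.8 and 18.7 FPKM in the strong and 14.2, 15.6 and 11.2 FPKM in the weak libraries. It was followed by a pentatricopeptide repeat gene (PARG16396, r = 0.993) and the MAP kinase kinase kinase YODA (PARG09933, r = 0.989). DREB2C was most like the glycosyltransferase 71A16 (PARG14068, r = 0.992), a RLCKVII kinase (PARG00836, r = 0.991) and the ABC transporter G family member 7 (PARG06780, r = 0.991). PARG07913 was most like the NAC factor NAC72 (PARG10669, r = 0.995), which in Arabidopsis responds to drought and abscisic acid, protein phosphatase 2C 37 (PARG00620, r = 0.990) and a methylthioadenosine nucleosidase (PARG18645, r = 0.984). NAC72 was at 334, 331 and 354 FPKM in the strong and 327, 345 and 180 FPKM in the weak libraries, with weak library 3 alone low.

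PARG15623 was most like a G-type lectin receptor kinase (PARG10575, r = 0.9998), xyloglucan endotransglucosylase 31 (PARG01043, r = 0.9995) and MAP kinase kinase 9 (PARG25230, r = 0.9994). Their log2 differences were 0.87, 1.88 and 2.76, which the choice by likeness to PARG15623 largely fixes. DREB2B was most like the oxidoreductase YgbJ (PARG25210, r = 0.9995), POOR HOMOLOGOUS SYNAPSIS 1 (PARG06060, r = 0.9992) and the Ninja-family protein AFP3 (PARG24966, r = 0.998). A value over 0.9 was reached by 2525 of the named genes with PARG15623 and by 3367 with DREB2B. It was reached by 163 with DREB2A, 133 with DREB2C, 78 with PARG07913 and 18 with PARG27864, for which the nearest were the E3 ligase PRT6 (PARG02432, r = 0.991), apyrase 7 (PARG24618, r = 0.974) and the thioredoxin TDX (PARG25218, r = 0.959). The patterns of DREB2B and PARG15623 are thus the common ones in these libraries, with weak library 3 between weak libraries 1 and 2 and the strong clone.

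The DREB2B and DREB2C genes share a type of gene neighbourhood, seen among the 5 genes on each side of each member and noticed after the values were known. The table holds 2 genes described as abscisic acid receptor PYL4, and each lies near a DREB2 gene. PYL proteins are receptors of abscisic acid, the hormone of the drought response. On linkage group 5 PARG19136 lies 11128 bases from DREB2C and was at 29.9, 24.7 and 41.6 FPKM in the strong and 6.34, 3.60 and 6.36 FPKM in the weak libraries (log2 difference 2.36 ± 0.29 SE, limma adjusted p = 0.00833). On the contig PARG29278 lies 25079 bases from DREB2B and was at 143, 177 and 172 FPKM against 42.8, 29.4 and 63.2 FPKM (1.90 ± 0.31 SE, adjusted p = 0.0159). Both PYL4 genes were higher in the strong clone without overlap, whereas the DREB2 genes of these stretches were at 0.05 (DREB2C) and 0.42 (DREB2B) and did not pass the test. Other genes lie between each PYL4 gene and its DREB2 gene. Both stretches also hold genes of the trichome birefringence-like family, of wall polysaccharide acetylation, which has 40 genes in the table. Number 33 near DREB2C (PARG19135) was at 1.013 ± 0.38 and did not pass (adjusted p = 0.0913), number 35 near DREB2B (PARG29276) was at 0.09 ± 0.23 (adjusted p = 0.776), and number 34 near DREB2B (PARG29277) was lower in the strong clone (-1.24 ± 0.26 SE, adjusted p = 0.0309), as was a gene without description there (-1.62 ± 0.23 SE).

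Of 60 neighbours 38 were tested, and 4 were higher and 4 lower, against 15.3% called in either direction over all genes. DREB2A adjoins a xyloglucan endotransglucosylase gene (protein 9, PARG13529), an enzyme of wall loosening. That gene was at 342, 247 and 378 FPKM in the strong libraries and at 3.21, 7.11 and 136 FPKM in the weak libraries, and did not pass the test (4.25 ± 1.23 SE, adjusted p = 0.0592). It is named for having the largest difference of the tested neighbours, which was seen in its values. Past the threshold near DREB2A were a gene without description (PARG13526, 1.40, with 0 reads in the weak clone), a geranylgeranyl transferase subunit (PARG13528, -1.16) and a second gene without description (-1.21). A carotenoid cleavage dioxygenase gene near PARG07913 (PARG07916) was higher in the strong clone (2.003 ± 0.46 SE, adjusted p = 0.0371). No tested neighbour of PARG15623 or PARG27864 passed the threshold (6 tested for each).

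**Figure D4:**
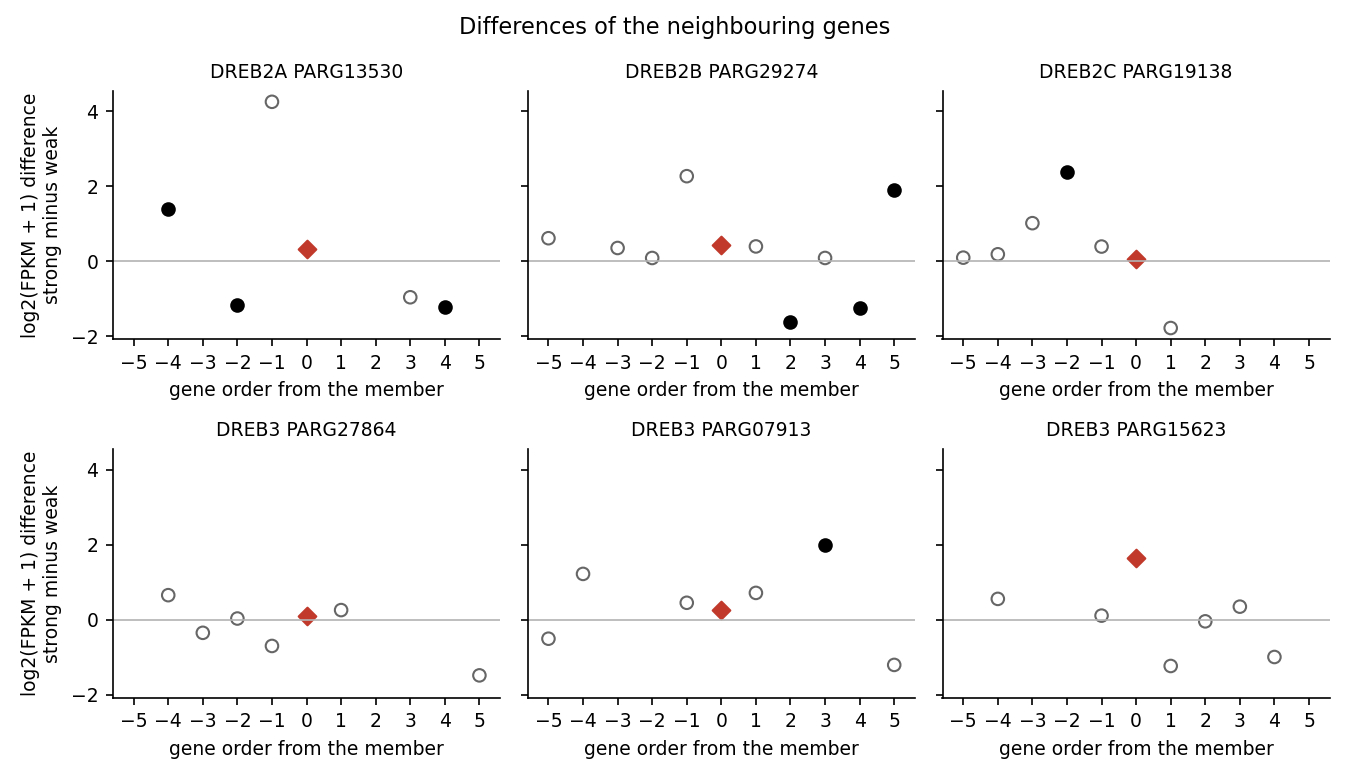
Log2(FPKM + 1) difference, strong minus weak, of the tested genes among the 5 on each side of each DREB gene, by gene order along the linkage group or contig. The red diamond is the DREB gene, filled circles passed the test and open circles did not, and genes under the filter are not drawn. Filled points at 1.90 and 2.36 are the PYL4 genes near DREB2B (5 genes away) and DREB2C (2 genes away).

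The closest relatives by name were few. DREB2D (PARG07216), DREB2F (PARG26389) and DREB2G (PARG03190) were under the filter, with at most 0.284, 0.220 and 1.03 FPKM in any library. Of 5 DREB1 (CBF) genes, the cold branch, 3 were tested and 1 was higher, DREB1D (PARG23731), at 4.57, 6.17 and 5.85 FPKM in the strong and 0.717, 2.54 and 0.408 FPKM in the weak libraries (1.67 ± 0.37 SE, adjusted p = 0.0352), against 15.3% of all tested genes called. The list had 0 calls with a pseudocount of 0.1, a filter of 5 FPKM or quantile scaling, and without any 1 strong library or weak library 1. DREB1B (PARG23730) and DREB1A (PARG23732) differed by 0.62 ± 0.47 and -0.23 ± 0.47 and did not pass. In frosted flowers of both clones the DREB2A and DREB2C genes were thus listed at higher FPKM than any DREB1 gene, in each of the 6 libraries.

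Related AP2/ERF factors, described as RAP2-4, ABI4 or an ERF with a number, came to 22. Of these, 13 were tested, 5 were higher and 1 was lower, with a median of 0.63. Over all tested genes 7.53% were higher and 7.78% lower, with a median of 0.05. RAP2-4 (PARG08527), a factor of light and drought responses in Arabidopsis, was the most abundant, at 201, 182 and 253 FPKM in the strong and 107, 120 and 83.5 FPKM in the weak libraries (1.03 ± 0.26 SE, adjusted p = 0.047). ERF060 (PARG01786) was at 67.8, 70.3 and 71.1 against 28.6, 30.8 and 24.4 FPKM (1.30 ± 0.18, adjusted p = 0.0109). ERF022 (PARG08766) was at 7.68, 8.74 and 20.8 against 0, 0.461 and 0.24 FPKM (3.33 ± 0.39, adjusted p = 0.0076). Its weak values rest on 0, 3 and 3 reads, all under 1 FPKM, so it passed the filter through the clone where it was high. ERF027 (PARG23734, 3.06 ± 0.55) and ERF053 (PARG14528, 2.03 ± 0.34) were also higher, and ERF025 (PARG19428, -2.08 ± 0.55, adjusted p = 0.0499) was lower. ERF026 (PARG23736), at 21.9, 35.6 and 22.9 against 142, 196 and 46.3 FPKM, differed by -2.02 ± 0.54 and did not pass (adjusted p = 0.0519), and ERF061 (PARG24008) differed by -0.69 ± 0.45 (adjusted p = 0.248). Over all 65 tested genes with an AP2 domain, a set counted after the values were seen, 18 were higher and 4 lower, with a median of 0.62, beside the same shares and median over all tested genes.

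Regulators of DREB2A known from Arabidopsis and other genes of their families, matched by name, numbered 45. Of these, 38 were tested, 3 were higher and 1 was lower, or 10.5%, with a median of -0.08. Over all tested genes 15.3% were called. With equal FPKM sums the median was 0.69, under the 0.76 of all genes. The AREB-type factors described as ABI5-like protein 5 (PARG07789) and 2 (PARG08477), of a family that activates genes through abscisic acid, were higher. The first was at 73.2, 81.7 and 83.2 against 37.4, 35.2 and 33.1 FPKM (1.15 ± 0.18 SE, adjusted p = 0.0137). The second was at 125, 102 and 127 against 7.98, 11.5 and 59.7 FPKM (2.65 ± 0.69 SE, adjusted p = 0.0488). Other genes of these names, added after their values were seen, did not pass. They were the ABI5-like protein 2 genes PARG01652 (-0.69 ± 0.27) and PARG16952 (0.30 ± 0.18) and the ABI5-like protein 5 gene PARG21224 (0.41 ± 0.22). ABI5-like protein 1 (PARG01253) was lower (-0.99 ± 0.24, adjusted p = 0.0432). Growth-regulating factor 8 (PARG24159), of the family of GRF7, a repressor of DREB2A in Arabidopsis, was higher (1.72 ± 0.33, adjusted p = 0.0241). Casein kinase 1-like proteins 1 (PARG27640) and 4 (PARG07920), the most abundant besides ABI5-like protein 2, differed by -0.98 ± 0.31 and -1.51 ± 0.50 (adjusted p = 0.0682 and 0.0746).

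The regulators that act on DREB2A protein in Arabidopsis were named for that role after their values were seen. The ubiquitin ligase DRIP2 (PARG03097), which marks DREB2A for breakdown, was at 4.95, 4.73 and 5.10 against 2.98, 5.05 and 4.36 FPKM, which overlap (0.23 ± 0.22 SE, adjusted p = 0.424). The BPM adaptor genes described as BTB/POZ and MATH protein 2, which serve another ubiquitin ligase, differed by -0.84 ± 0.34 (PARG20052) and -0.63 ± 0.22 (PARG05594), with adjusted p of 0.105 and 0.0802. RCD1 (PARG17092), which binds DREB2A, was at 29.3, 29.4 and 28.9 against 37.6, 42.6 and 35.8 FPKM, without overlap (-0.39 ± 0.17, adjusted p = 0.119). Mediator subunit 25 (PARG06637) differed by 0.05 ± 0.17 (adjusted p = 0.817). None of these passed the test.

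Genes known in Arabidopsis as DREB2A targets, or from families that carry the element, numbered 59. Of these, 33 were tested, 4 were higher and 3 lower, or 21.2%, against 15.3% of all tested genes called, with a median of -0.33. With equal FPKM sums 8 were higher and 2 lower, where 14.1% of all tested genes were called and 9.52% called higher. The median was then 0.45, again under the 0.76 of all genes. The members that were higher were a dehydrin (PARG27271), at 98.9, 121 and 146 against 31.6, 17.8 and 20.9 FPKM (2.36 ± 0.28 SE, adjusted p = 0.00771), LEA D-34 (PARG20115, 1.92 ± 0.29), LEA At1g64065 (PARG23933, 1.496 ± 0.34) and a universal stress protein A-like gene (PARG19900, 1.503 ± 0.23). PARG20115 had 1, 0 and 3 reads in weak libraries 1, 2 and 3, so it passed the filter through the clone where it was high. Other genes with the names of these higher members had lower mean FPKM in the strong clone. The dehydrins PARG27268 (-1.21 ± 0.37) and PARG27269 (-0.93 ± 0.43) and the universal stress protein A-like gene PARG12936 (-0.39 ± 0.17) did not pass. LEA D-34 genes PARG03035 (-1.34 ± 0.58) and PARG20113 (-1.07 ± 0.54) did not pass either, and LEA At1g64065 gene PARG23936 was under the filter, at 0.348 to 0.561 against 0.899 to 2.15 FPKM. Dehydrins are known as proteins of drying tissue. The lower ones were heat shock cognate 70 genes of low level (PARG18930, -1.38 ± 0.21, and PARG13448, with 0 reads in the strong clone) and the universal stress protein PHOS34 (PARG13581, -1.52 ± 0.40). The most abundant ones had negative differences that did not pass. The dehydrin PARG07069 was at 648, 673 and 756 against 2699, 2146 and 942 FPKM (-1.35 ± 0.56, adjusted p = 0.108), the universal stress protein Mb2028c (PARG06696) differed by -1.74 ± 0.71 (adjusted p = 0.103), and a heat shock cognate 70 gene (PARG02401) by -0.82 ± 0.32 (adjusted p = 0.0948). In both of the first 2 genes weak libraries 1 and 2 were far above all other libraries, as for the summed FPKM of the pollen markers. Whether pollen has a part in these differences was not tested.

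Heat stress factor A-3, a direct target of DREB2A and DREB2C in Arabidopsis, was named for that role after its values were seen. Its 2 apricot genes (PARG26733 and PARG29593) were under the filter, at 0.332 to 0.703 and at up to 0.0574 FPKM among the strong libraries, and at 0.0547 to 0.343 and at up to 0.0359 FPKM among the weak libraries. The low-temperature-induced 65 kDa gene (PARG19466), of the RD29 family and likewise named after its values were seen, was at 18.5, 27.9 and 16.0 against 52.6, 63.9 and 26.6 FPKM (-1.11 ± 0.38, adjusted p = 0.077) and did not pass.

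**Figure D5:**
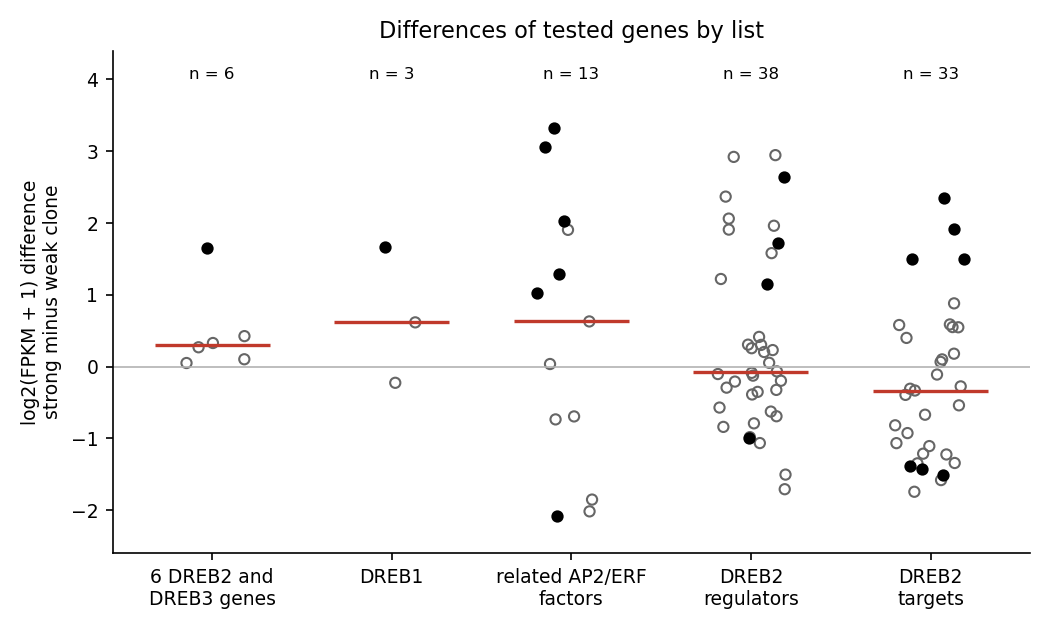
Log2(FPKM + 1) difference, strong minus weak, of each tested gene (points, filled where the adjusted p was below 0.05) in the DREB2 and DREB3 set and in the lists around it, with the list median as a red line. The 6 DREB genes have a median of 0.30, the related AP2/ERF factors 0.63, the regulators with their families -0.08 and the targets -0.33. Each of the last 3 lists has genes on both sides of 0.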

How the data were processed

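RNA of frosted flowers was sequenced in 6 libraries, 3 per clone, grouped by the group label and numbered as in the labels. The authors deposited FPKM values per gene, with positions and descriptions. CASAVA, Bowtie2 and RSEM are named in the submitters' processing notes, without versions, and the build is not given in the sources used here. FPKM times gene length gave whole reads in 100% of positive values, within 0.01 read, so reads behind each value could be computed. Per kilobase, 1 read stood for 0.0372 to 0.0965 FPKM depending on the library, and this did not follow the read totals. Intervals from reads are 95% and cover counting error only, and PCR copies are not independent molecules.

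Tested were all genes reaching 1 FPKM in 3 or more libraries, with limma 3.58.1 (R 4.3.3) on log2(FPKM + 1), with trend, two-sided, adjusted over all 16462 genes. A gene could pass this filter through 1 clone alone. The members and lists were chosen with earlier results of these data known. Lists were formed by words in protein names, within the name field or, for dehydrins, the domain field. Named are the 6 genes, up to 4 called genes by adjusted p and up to 3 of the most abundant per list, the 3 genes of most similar pattern per member and the called neighbours. Genes outside this rule are marked where they appear, with some exceptions that were named after their values were known. These are ERF025, PHOS34, the dehydrins PARG27268 and PARG27269, and the LEA D-34 and LEA At1g64065 genes other than PARG20115. They also include the universal stress protein A-like genes and the trichome birefringence-like genes. Alternatives covered the pseudocount, filter, scaling, library weights, replicate block, whole reads and each library left out. Stretches shared between family members could take each other's reads.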

Additional observations from a re-analysis of the deposited data

How the results depend on the processing

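Of the 6 differences, that of PARG15623 stayed past the threshold under every alternative that kept all libraries and tested it, and 2 genes (PARG07913 and PARG15623) were not tested with a filter of 5 FPKM. Leaving out 1 library at a time gave 1.51 to 1.91 for PARG15623, with adjusted p from 0.000221 to 0.092 (lost without strong library 1, 2 or 3 or weak library 1 or 2). It gave 0.34 to 0.56 for DREB2B (passing without weak library 3), -0.26 to 0.21 for DREB2C (negative without weak library 3 and, at -0.02, without strong library 2) and -0.10 to 0.33 for PARG27864 (also -0.04 without weak library 1). For PARG07913 it gave 0.03 (without weak library 3) to 0.40, and for DREB2A 0.23 to 0.40. With equal FPKM sums DREB2A (1.11) and DREB2C (0.85) passed. With quantile scaling PARG07913 was at -0.0095. With library weights, where 13932 of 16462 genes were called, DREB2A (0.21) and DREB2B (0.50) passed as higher and DREB2C (-0.35, adjusted p = 0.00877) passed as lower, while PARG27864 (-0.16) and PARG07913 (-0.023) turned negative without passing. These weights were estimated gene by gene, a method chosen after the default gave an extreme weight, and put 0.0528 on weak library 3. The cause of these changes was not tested.

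Genes called over the table were 1183 with the filter of 5 FPKM, 13932 with weights as above, 6439 with the replicate block and 166 to 12075 with 1 library left out, the last without weak library 3. The DREB1 list had 0 calls with a pseudocount of 0.1, the filter of 5 FPKM or quantile scaling, and 0 to 1 with a library left out. The AP2/ERF list had 3 with the pseudocount of 0.1, 10 with quantile scaling, 12 with weights and 1 to 11 with a library left out. The list of regulators and their families had 2 with the pseudocount, 1 with the filter and 7 with quantile scaling. It had 33 with weights, 17 with the replicate block and 0 to 25 with a library left out. The targets had 2 with the filter, 28 with weights, 14 with the block and 1 to 24 with a library left out. Whether the replicate numbers pair the samples cannot be told from these few libraries. Deviations of same-numbered libraries correlated at -0.236, 0.588 and 0.605, and not every library correlated best with its own number. With the replicate block PARG15623 stayed at 1.65 (limma adjusted p = 0.00877). PARG15623 rests on 3 reads in each of weak libraries 1 and 2, and its level there is known only to counting error.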
